A study of Mus musculus with 12 samples.

Results

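The 6 vehicle arrays compared here came from 3 male C57Bl/6 mice with intact Hdac6 (wild type) and 3 male C57Bl/6 mice labelled HDAC6 Y/-, out of 12 arrays in the series. Hdac6 lies on the X chromosome, so a male carries a single copy, and Y/- denotes its loss. All 6 animals received vehicle by intraperitoneal injection over 3 weeks, were fed ad libitum and were kept in a 12 h light cycle. Each array measured total RNA from snap-frozen liver of a different animal. The other 6 arrays, 3 per genotype, came from mice given dexamethasone, a synthetic glucocorticoid, at 1 mg/kg over the same 3 weeks. They are used here to estimate the spread between animals and to set the genotype difference beside that in treated mice. The labels give neither the exons that the allele lacks nor the time of day at which livers were taken.

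Hdac6 is a mainly cytoplasmic deacetylase. Its known substrates include alpha-tubulin, cortactin and the chaperone Hsp90, and its ubiquitin-binding domain takes part in the transport of misfolded proteins to the aggresome. Hsp90 in turn holds the glucocorticoid receptor ready for its hormone. Among the genes described below are those of the liver's circadian clock, a loop in which Clock and Arntl (Bmal1) activate the Period and Cryptochrome genes through E-box motifs, and the Period and Cryptochrome proteins repress Clock and Arntl. The same activators drive Dbp, Tef and Hlf, which act through D-box motifs, and the receptors Nr1d1 and Nr1d2 compete with ROR activators at ROR elements, such as those of Arntl.

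Levels are given as deposited, in log2 intensity, where 1 unit is a factor of 2. Differences are knockout minus wild type with the standard error of a limma fit to all 12 arrays, and a gene was called where its p, adjusted by Benjamini-Hochberg over 17904 genes, was under 0.05. The medians of the 6 arrays lay between 3.13 and 3.21. Pairs of arrays correlated over probe sets at 0.9846 to 0.9904 within a group (6 pairs) and at 0.9821 to 0.9912 between the groups (9 pairs). The labelled tissue was borne out by 11 hepatocyte markers, whose mean was 12.25 to 12.26 in wild-type and 12.21 to 12.29 in knockout arrays. Transcripts of exocrine pancreas were present as well, marked by a level of the carboxypeptidase Cpa1 above 6. This held for wild-type replicates 1 and 2 and for knockout replicate 3. The called genes are related to these 3 arrays in a later paragraph, not where each gene is described.

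Hdac6 itself (probe set 10603387) read 6.09, 6.08 and 6.43 in the 3 wild-type arrays and 4.40, 4.07 and 3.90 in the 3 knockout arrays. Every knockout array was below every wild-type array, and the labels held. The difference was -2.08 ± 0.14, a 4.22-fold lower level (limma, adjusted p = 3.7e-05), and it was the smallest p of the comparison. The remaining signal in the knockout was higher than that of 59.6% to 63.8% of the probe sets of the same array, against 78% to 81.3% in wild type. What this remaining signal stems from was not tested. None of 19 measured neighbours of Hdac6, up to 10 genes on each side, was called. The neighbour with the smallest p was Rbm3, an RNA-binding protein induced by cold, at 8.46, 8.09 and 8.52 in wild type and 7.91, 7.97 and 7.93 in knockout, a difference of -0.42 ± 0.12 (limma, adjusted p = 0.435). Its groups did not overlap, but it missed the threshold, and 1 of the 19 neighbours had an unadjusted p under 0.05. None of 5 genes known to vary between mouse strains was called, and none had an unadjusted p under 0.05. Nnt, whose loss marks a C57Bl/6 substrain, differed by 0.17 ± 0.21 (adjusted p = 0.9).

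Across all genes, 18 of 17904 were called, or 0.101%. Of these 7 were higher in the knockout (0.0391%) and 11 were lower (0.0614%). A change of at least 2-fold was seen in 14 of the 18, 6 higher and 8 lower. At an unadjusted p under 0.05 there were 584 higher genes (3.26%) and 704 lower genes (3.93%). The 3 knockout values lay wholly above the 3 wild-type values for 5.8% of genes and wholly below for 6.04%, which makes 11.8% without overlap. The median difference over all genes was 0.00. Among 10559 further probe sets with several genes or none assigned, 0 were called and 593 had an unadjusted p under 0.05.

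**Figure D1:**
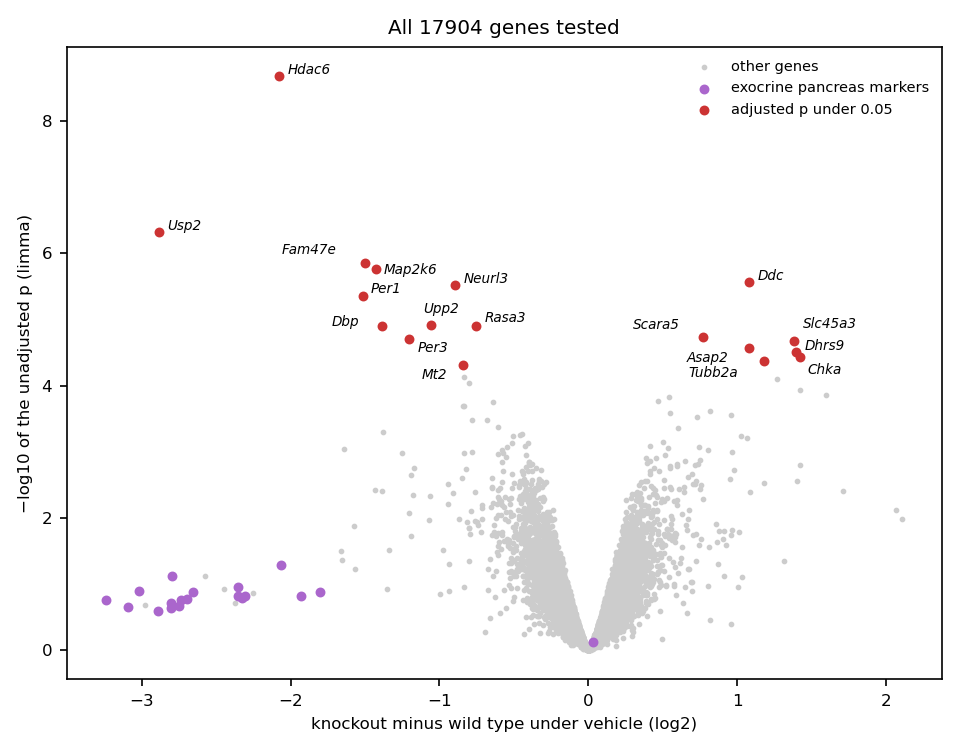
Each point is 1 of 17904 genes, with the difference between knockout and wild type under vehicle (log2) on the x axis and -log10 of the unadjusted limma p on the y axis. The 18 called genes are red, led by Hdac6 at -2.08 and Usp2 at -2.88, and the purple exocrine pancreas markers, down to -3.24, lie low on the plot, none with an unadjusted p under 0.05.

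The number of calls depended on single arrays. Without wild-type replicate 2 there were 5 calls, of which 4 were among the 18: Hdac6, Usp2, Fam47e and Map2k6. Without knockout replicate 3 there were 8, and without knockout replicate 2 there were 10, of which 9 were among the 18. Leaving out knockout replicate 1 gave 14 calls with 8 among the 18. Without wild-type replicate 1 there were 28, 16 of them among the 18. Without wild-type replicate 3, which leaves only wild-type arrays with pancreas transcripts, there were 23 calls with 9 among the 18. The new ones included the pancreatic genes Ins2, Spink1 and Cckar and the muscle genes Acta1, Ckm and Mb. Among the dexamethasone arrays, which entered only the estimate of spread, leaving out knockout replicate 2 lowered the count to 10. With only the 6 vehicle arrays in the fit, 9 genes were called, of which 7 were among the 18. The differences were the same, but the calls of Per1 (limma, adjusted p = 0.14), Dbp (0.132), Upp2 (0.132), Slc45a3 (0.194) and Neurl3 (0.0578) were among the 11 lost. These calls therefore needed the dexamethasone arrays in the fit. Without them the residual degrees of freedom fell from 8 to 4. The standard error went from 0.20 to 0.24 for Per1 and from 0.115 to 0.116 for Neurl3. Hdac6 and Usp2 stayed called in each of 22 alternative analyses, and Fam47e and Map2k6 in 21. No called gene changed sign in any of them, although for genes whose groups do not overlap a change of sign could not arise from leaving out arrays.

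Genes of the clock's negative arm and its outputs lay mostly below wild type in the knockout. Of 21 genes on this list 20 were measured, and 4 were called, all lower: Usp2, Per1, Dbp and Per3, or 4 of 20 against 0.0614% of all genes. At an unadjusted p under 0.05, 14 were lower and 2 higher, against 3.93% and 3.26% of all genes. The groups lay apart for 13 of the 20, 12 lower and 1 higher, against 11.8% of all genes. The median difference of the list was -0.65, against 0.00 over all genes, and it was -0.64 without the arrays with pancreas transcripts. The list was drawn up with earlier results of these data known, and its counts are a description. The labels do not give the time of day at which livers were taken, and its part in the clock differences was not tested.

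Promoter sequence shows where the motifs named above occur near the starts of called clock genes. The 250 bases before each annotated start were searched on both strands for the E-box CACGTG, the D-box TTATGTAA and the ROR element core AGGTCA. Of 32851 RefSeq promoters (GRCm38.p6), 6.02% held the E-box, 0.819% the D-box and 14% the ROR core. The table held 23 promoters for 16 of the 18 called genes: 1 promoter had an E-box (Per1), 2 had a D-box (Per3 and Map2k6) and 8 had a ROR core. No match to any of the 3 was in the window of Usp2 or Dbp. Of the called clock-linked genes, Slc45a3 had a single ROR core, 115 bases before 1 of its starts. The 3 promoters below were picked after the matches were seen, to show each motif: the E-box of Per1, and the paired D-boxes of Per3 and paired ROR cores of Upp2. The other annotated start of Per1 and that of Upp2 held no match to any of the 3 motifs. Capitals mark the matches. In Per1 (chr11:69098699-69098948, plus strand) these are an E-box 166 bases before the start and a ROR core, read on the opposite strand as TGACCT, 137 bases before it. In Per3 (chr4:151044666-151044915, minus strand) they are D-boxes at 205 and 158 bases before the start, and in Upp2 (chr2:58754934-58755183, plus strand) ROR cores at 188 and 160.
Per1: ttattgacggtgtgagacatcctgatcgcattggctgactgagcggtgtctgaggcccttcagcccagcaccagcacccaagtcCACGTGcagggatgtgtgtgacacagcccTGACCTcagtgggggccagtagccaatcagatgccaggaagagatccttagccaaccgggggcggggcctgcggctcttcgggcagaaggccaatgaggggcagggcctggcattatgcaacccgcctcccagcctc
Per3: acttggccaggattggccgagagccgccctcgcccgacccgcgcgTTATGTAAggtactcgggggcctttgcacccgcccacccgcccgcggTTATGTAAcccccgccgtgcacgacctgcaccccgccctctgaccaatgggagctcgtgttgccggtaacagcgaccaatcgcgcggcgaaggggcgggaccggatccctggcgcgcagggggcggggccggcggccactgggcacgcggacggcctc
Upp2: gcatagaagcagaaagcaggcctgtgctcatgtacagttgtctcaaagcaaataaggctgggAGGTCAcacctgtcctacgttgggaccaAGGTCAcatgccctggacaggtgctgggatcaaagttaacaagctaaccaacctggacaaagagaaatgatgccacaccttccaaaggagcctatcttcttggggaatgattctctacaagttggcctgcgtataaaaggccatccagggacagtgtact

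Usp2, a ubiquitin-specific protease whose liver transcript is rhythmic, showed the largest difference among the called genes. It read 5.97, 7.49 and 7.19 in wild type and 3.76, 4.0 and 4.25 in knockout. All knockout arrays were well below the lowest wild-type array, which was replicate 1. The difference was -2.88 ± 0.31, or 7.38-fold (limma, adjusted p = 0.00425), and it ranged from -3.34 to -2.58 over the alternatives.

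The 3 Period genes encode the repressors of the clock. Per1 read 4.67, 5.46 and 5.50 in wild type and 3.40, 4.06 and 3.63 in knockout, and Per3 read 5.10, 5.51 and 5.34 against 4.2, 3.84 and 4.30. In both, the groups lay apart, and wild-type replicate 1 was the wild-type array closest to the knockout. Per1 fell by 1.52 ± 0.20, 2.86-fold (limma, adjusted p = 0.0111), and Per3 fell by 1.20 ± 0.19, 2.30-fold (adjusted p = 0.0288). Per2 read 4.82, 5.92 and 5.38 against 4.36, 4.07 and 4.15, and did not pass, with a difference of -1.18 ± 0.34 (adjusted p = 0.461). Its groups also lay apart, and the standard error includes the spread of the dexamethasone arrays. With only the 6 vehicle arrays it was 0.24 for Per2, as for Per1, and neither passed (limma, adjusted p = 0.315 and 0.14).

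Of the factors that act through D-boxes, Dbp read 8.27, 9.10 and 9.0 in wild type and 7.16, 7.45 and 7.62 in knockout. The lowest wild-type array, again replicate 1, was above every knockout array. Dbp fell by 1.39 ± 0.20, 2.61-fold (limma, adjusted p = 0.0227). Its relative Tef read 7.32, 7.89 and 7.78 against 6.83, 6.80 and 6.84, a difference of -0.84 ± 0.16 that missed the threshold (adjusted p = 0.131). Hlf, the third of the family, differed by -0.37 ± 0.14 (adjusted p = 0.627), and its groups overlapped.

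Other repressors of the loop gave differences of the same sign that did not pass. Bhlhe41, a repressor that competes at E-boxes, read 4.76, 5.05 and 5.90 against 3.56, 3.91 and 4.09, a difference of -1.38 ± 0.30 (limma, adjusted p = 0.243). Ciart, a repressor of Clock and Arntl, read 4.45, 6.59 and 5.92 against 3.82, 3.78 and 4.44. Wild-type replicate 1 lay just above knockout replicate 3, and the difference was -1.64 ± 0.38 (adjusted p = 0.314). The kinase Wee1, a clock output that delays mitosis, differed by -1.25 ± 0.30 (adjusted p = 0.325), and Cry2 by -0.64 ± 0.18 (adjusted p = 0.435). The receptors of the second loop showed smaller differences, which were not tested against those of the other clock genes. Nr1d1 read 9.35, 9.14 and 9.57 in wild type and 9.52, 9.20 and 9.32 in knockout, a difference of -0.01 ± 0.45 (95% interval -0.97 to 0.95, adjusted p = 0.997). The standard error includes the spread of the dexamethasone arrays, and with only the 6 vehicle arrays it was 0.13 for Nr1d1. The values of Nr1d1 interleaved, and the sign of so small a difference changed under 4 alternatives. Nr1d2 differed by -0.15 ± 0.11 (adjusted p = 0.81), again with overlapping groups.

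The positive arm and genes that peak in opposite phase tended the other way. Of 18 listed, 14 were measured, and 2 were called higher (Slc45a3 and Asap2, against 0.0391% of all genes) and 1 lower (Upp2). At an unadjusted p under 0.05, 6 were higher and 2 lower, against 3.26% and 3.93% of all genes. The groups lay apart for 8 higher and 2 lower members, against 5.8% and 6.04% of all genes. The median was 0.37, and 0.27 without the arrays with pancreas transcripts. This list too was drawn up with earlier results of these data known, and its counts are a description. Arntl, the partner of Clock, read 4.22, 3.35 and 3.38 in wild type and 5.66, 4.46 and 5.09 in knockout. Each knockout array was above each wild-type array, with wild-type replicate 1 the nearest to them. The difference of 1.42 ± 0.26, 2.67-fold, missed the threshold (limma, adjusted p = 0.0952), and it was called when wild-type replicate 1 (1.70) or knockout replicate 2 (1.73) was left out. Clock read 7.15, 6.17 and 6.87 against 7.55, 7.51 and 7.39, a difference of 0.76 ± 0.21 (adjusted p = 0.429). Cry1 differed by 0.36 ± 0.31 (limma, adjusted p = 0.84) and Nfil3, a repressor at D-boxes, by 0.37 ± 0.18 (adjusted p = 0.707). The groups of Cry1 lay apart. With only the 6 vehicle arrays its standard error was 0.115, and it did not pass (limma, adjusted p = 0.671). Npas2 was not among the probe sets with 1 gene symbol and has no value here.

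Slc45a3, a member of a sugar transporter family, read 5.80, 4.66 and 5.15 in wild type and 6.80, 6.55 and 6.41 in knockout. The knockout arrays were all above the wild-type arrays, of which replicate 1 was the highest. The rise was 1.38 ± 0.21, 2.61-fold (limma, adjusted p = 0.0288). Asap2, a GTPase-activating protein for Arf proteins, rose from 4.07, 4.0 and 3.77 to 5.20, 5.09 and 4.79, by 1.08 ± 0.17 (adjusted p = 0.0343). Upp2, the liver-enriched uridine phosphorylase, went the other way. It read 10.09, 9.89 and 10.26 against 9.07, 8.70 and 9.31, and fell by 1.05 ± 0.15 (adjusted p = 0.0227).

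The wild-type animals were not alike in these genes. For each of 13 core clock genes measured, the wild-type array nearest to the knockout mean was identified: it was replicate 1 for 10 genes, replicate 2 for 1 and replicate 3 for 2. The clock levels of wild-type replicate 1 were therefore the closest to the knockout. It carried pancreas transcripts, as did wild-type replicate 2, which was nearest for only 1 gene. A link between pancreas transcripts and the clock levels was not tested. Of 13 kinases, ubiquitin ligases and co-factors of the clock that were measured, none was called, and 1, the chromatin protein Wdr5, had an unadjusted p under 0.05 (-0.36 ± 0.10, adjusted p = 0.435).

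**Figure D2:**
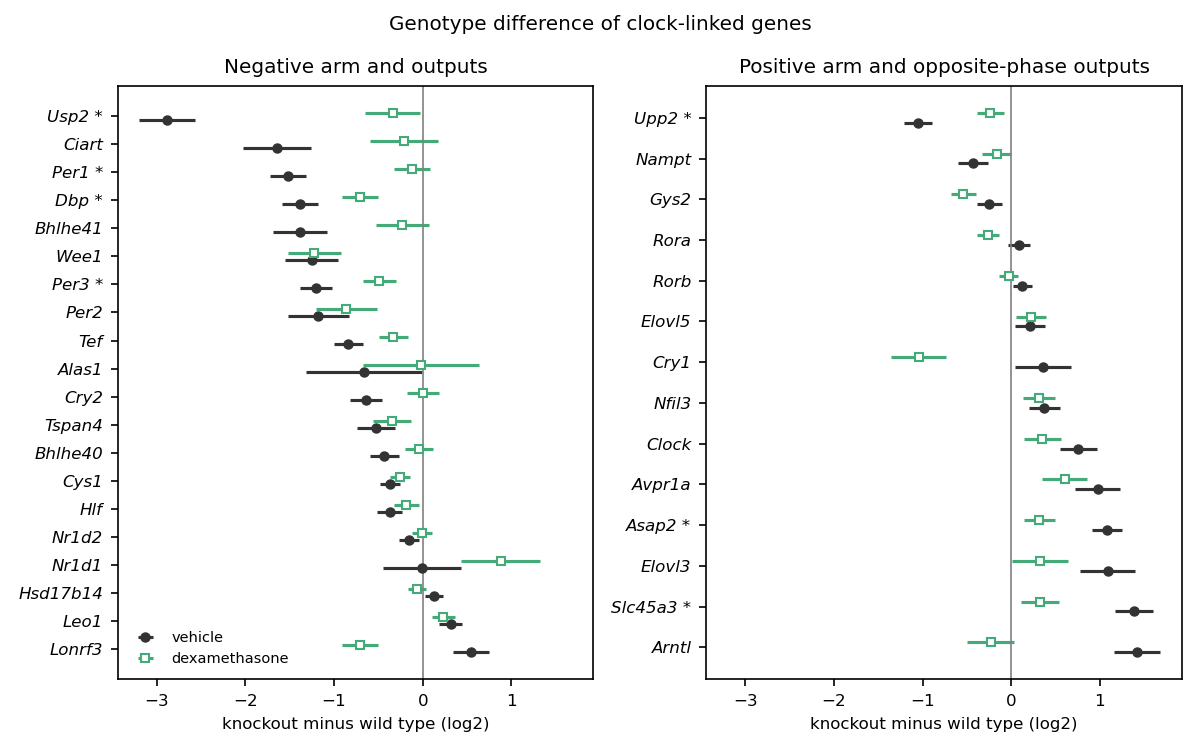
Difference between knockout and wild type (log2, x axis) of the 20 measured genes of the negative arm and outputs (left) and the 14 of the positive arm and opposite-phase outputs (right), with bars of 1 standard error. Filled circles are the vehicle arrays, open squares the dexamethasone arrays, and a star marks the genes called under vehicle. The vehicle values run from -2.88 (Usp2) to 0.54 (Lonrf3) on the left and from -1.05 (Upp2) to 1.42 (Arntl) on the right, and most squares lie nearer to 0.

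Of the genes outside the clock lists, 5 besides Hdac6 fell. Fam47e read 5.78, 6.28 and 5.92 in wild type and 4.73, 4.41 and 4.36 in knockout. No array of a group came within 1.0 of the other group, and the gene fell by 1.5 ± 0.18, 2.82-fold (limma, adjusted p = 0.00781). Map2k6, the kinase that activates p38, read 5.44, 5.20 and 5.46 against 4.31, 3.62 and 3.90, and fell by 1.43 ± 0.18, 2.69-fold (adjusted p = 0.00781). Neurl3, an E3 ubiquitin ligase, read 4.42, 4.46 and 4.33 against 3.67, 3.29 and 3.57. The groups were tight and separate, and the fall was 0.90 ± 0.12 (adjusted p = 0.00885).

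Rasa3, which switches off Ras and Rap GTPases, read 5.67, 5.70 and 5.50 in wild type and 4.81, 4.73 and 5.08 in knockout, and fell by 0.76 ± 0.11 (limma, adjusted p = 0.0227). Mt2, a metal-binding metallothionein induced by glucocorticoids, read 5.59, 6.23 and 6.05 against 4.99, 5.17 and 5.20. Its groups lay apart by less than those of the other lower genes, and it fell by 0.84 ± 0.14 with the largest adjusted p among the calls (0.0479). The call of Mt2 was kept in only 1 of the 12 analyses that leave out an array.

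Of the 7 higher genes, Ddc showed the smallest p. It encodes the decarboxylase that makes dopamine and serotonin, and it rose from 7.12, 6.90 and 6.91 in wild type to 8.32, 7.98 and 7.88 in knockout, by 1.08 ± 0.14 or 2.12-fold (limma, adjusted p = 0.00885). The 3 knockout arrays were all above the highest wild-type array. Scara5, a receptor for ferritin, rose from 3.74, 4.05 and 4.05 to 4.55, 4.79 and 4.81, by 0.77 ± 0.12 (adjusted p = 0.0288). Dhrs9, a retinol dehydrogenase, rose from 4.34, 3.95 and 4.08 to 5.93, 5.07 and 5.56, by 1.39 ± 0.22 (adjusted p = 0.0367). In both genes every knockout array was above every wild-type array.

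Chka, the choline kinase that starts phosphatidylcholine synthesis, read 5.43, 4.86 and 5.02 in wild type and 7.11, 6.12 and 6.33 in knockout. Knockout replicate 1 was the highest, and all 3 were above wild type. The rise was 1.42 ± 0.23, 2.67-fold (limma, adjusted p = 0.0415). Tubb2a, a beta-tubulin, rose from 5.47, 4.99 and 4.70 to 6.56, 6.05 and 6.08, by 1.18 ± 0.20 or 2.26-fold (adjusted p = 0.044). Of the 12 analyses that leave out an array, Chka, Slc45a3 and Asap2 each kept their call in 4, Tubb2a in 3, and Dhrs9 and Per3 in 6. Dbp and Scara5 kept it in 7, Upp2 and Rasa3 in 8, Per1 in 10, and Neurl3 and Ddc in 11.

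**Figure D3:**
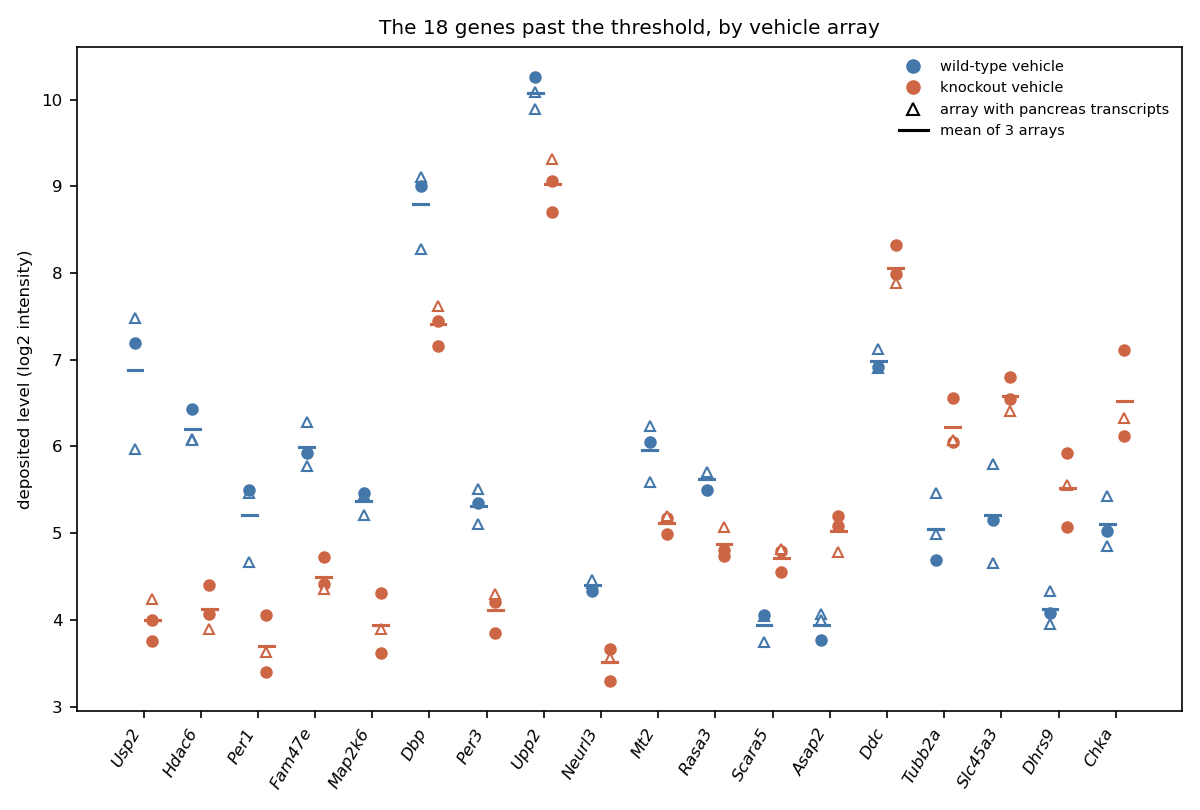
Deposited log2 level (y axis) of the 18 called genes in each vehicle array, wild type in blue and knockout in orange, with triangles for arrays with pancreas transcripts and a dash at the mean of 3 arrays. In each gene the 3 knockout values lie wholly above or wholly below the 3 wild-type values, as for Usp2 with 3.76 to 4.25 against 5.97 to 7.49.

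Pancreas transcripts were uneven between the groups. The mean of 19 exocrine pancreas markers was 9.24, 9.12 and 3.01 in the wild-type arrays and 2.98, 3.10 and 7.95 in the knockout arrays. Both high wild-type arrays were above the high knockout array, and the other 3 arrays were near 3. The median difference of the 19 markers was -2.70, the lowest was -3.24 (Try5), and none was called or had an unadjusted p under 0.05. Without the 3 arrays the median was 0.00. Transcripts of skeletal muscle, picked after their values were seen, were also highest in wild-type replicates 1 and 2: Acta1 read 6.41, 5.39 and 3.87 in wild type and 3.87, 4.11 and 4.11 in knockout, and Ckm read 4.78, 4.59 and 3.32 against 3.59, 3.46 and 3.02. Knockout replicate 3, the third array with pancreas transcripts, did not share the high muscle values.

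Each called gene could be compared within the arrays with pancreas transcripts (knockout replicate 3 against wild-type replicates 1 and 2) and within the others (knockout replicates 1 and 2 against wild-type replicate 3). All 18 had the same sign in both, which the separation of their groups fixes. The sizes were close for Hdac6 (-2.18 and -2.20), Map2k6 (-1.43 and -1.50), Neurl3 (-0.88 and -0.85) and Dhrs9 (1.41 and 1.42). They were smaller within the pancreas arrays for Usp2 (-2.48 and -3.32), Dbp (-1.07 and -1.70), Upp2 (-0.68 and -1.38) and Tubb2a (0.85 and 1.61), and larger for Fam47e (-1.67 and -1.35) and Scara5 (0.92 and 0.62). When the pancreas arrays of all groups were left out, 5 genes were called: Hdac6, Usp2 and Slc45a3 of the 18, with Ciart and the small nucleolar RNA Snord14e. That analysis has a lone wild-type vehicle array, taken to vary as the other groups do. With the marker mean as a covariate, 7 of the 18 were called and no other gene: Hdac6, Usp2, Fam47e, Map2k6, Ddc, Neurl3 and Per1. The calls of Dbp, Per3, Upp2, Slc45a3, Asap2, Rasa3, Mt2, Scara5, Dhrs9, Chka and Tubb2a were lost.

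**Figure D4:**
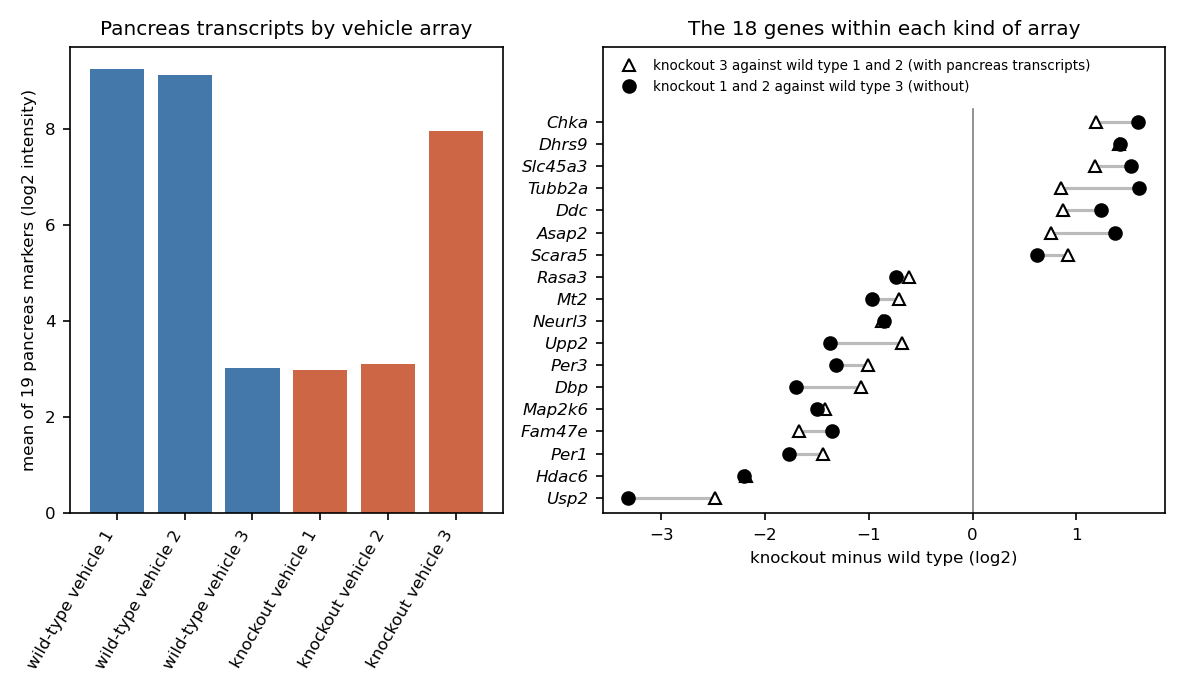
Left, mean log2 level of 19 exocrine pancreas markers in each vehicle array, high in wild-type replicates 1 and 2 (9.24 and 9.12) and knockout replicate 3 (7.95). Right, difference between knockout and wild type (log2, x axis) of the 18 called genes within arrays with pancreas transcripts (triangles) and within arrays without (circles), on the same side of 0 for each gene.

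The dexamethasone arrays did not enter the vehicle difference, but their spread entered its standard error. Wild-type replicate 3 among them carried pancreas transcripts (marker mean 7.23), and no knockout array under dexamethasone did. In the dexamethasone arrays Hdac6 was lower in the knockout by a like amount (-2.23 ± 0.14). Of the other 17 called genes, 14 had the same sign there. The groups lay apart with that sign for 5. How often either holds over all genes was not counted, and both counts are a description. An unadjusted p under 0.05 with that sign was seen in 5. Of all 17904 genes, 873 were higher and 693 lower at that level, or 8.75% in either direction. Dbp (-0.71 ± 0.20), Fam47e (-0.54 ± 0.18), Per3 (-0.49 ± 0.19), Ddc (0.52 ± 0.14) and Dhrs9 (0.55 ± 0.22) were the 5 called genes with that unadjusted p. The median size was 1.20 under vehicle and 0.32 under dexamethasone, and all 17 were smaller under dexamethasone, but the genes were chosen for their vehicle value, which favours such an order. Usp2 read 8.61, 8.66 and 8.65 in wild type and 7.77, 8.48 and 8.65 in knockout under dexamethasone, above every vehicle array, with overlapping groups and a difference of -0.34 ± 0.31. Per1 likewise read 6.21, 6.04 and 6.16 against 5.90, 6.11 and 6.03, a difference of -0.12 ± 0.20.

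The test of the difference between the genotype effects (dexamethasone minus vehicle) called 0 of 17904 genes (0%), with 6.19% at an unadjusted p under 0.05. For Usp2 it gave 2.54 ± 0.45 (limma, adjusted p = 0.25), for Per1 1.39 ± 0.29 (0.337) and for Rasa3 1.19 ± 0.16 (0.0756). No gene's genotype difference was thus shown to differ between the treatments. Under dexamethasone 5 genes were called (0.0279%). Apart from Hdac6 they were Mdfic, Gdap10, Acot1 and the acute-phase protein Saa2. Their vehicle differences were 0.39 ± 0.10, -0.45 ± 0.17, 0.26 ± 0.11 and 0.91 ± 0.47, with none past the threshold.

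Genes tied to the known biochemistry of Hdac6 showed few differences. Among 17 histone deacetylases other than Hdac6, none was called, and 3 had an unadjusted p under 0.05, all lower, against 3.93% of all genes. These were Hdac11 (-0.51 ± 0.12, limma, adjusted p = 0.29), Hdac7 (-0.34 ± 0.10, adjusted p = 0.48) and the mitochondrial deacetylase Sirt3 (-0.30 ± 0.12, adjusted p = 0.63). Hdac11 read 6.92, 7.04 and 7.29 in wild type and 6.51, 6.52 and 6.67 in knockout, without overlap. Of 27 measured substrates and partners of Hdac6, Tubb2a was called, higher, against 0.0391% of all genes. At an unadjusted p under 0.05, 2 were higher and 0 lower, against 3.26% and 3.93% of all genes. The call was lost with no filter and with only the 6 vehicle arrays. It was kept in 3 of the 12 analyses that leave out an array. Atat1, the acetyltransferase that opposes Hdac6 on tubulin, differed by 0.26 ± 0.11 (adjusted p = 0.645), and the list's median was -0.01. The heat shock list (18 measured, median 0.01), the ER stress list (20, median 0.06) and the autophagy list (21, median 0.04) had 0 calls each and 1 gene each at an unadjusted p under 0.05: Hspa4l (0.36 ± 0.13), Dnajb9 (0.27 ± 0.12) and Bnip3 (-0.43 ± 0.12).

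Among 29 measured glucocorticoid-induced genes, Per1 and Mt2 were called, both lower, against 0.0614% of all genes. The count was 0 without wild-type replicate 2 or knockout replicate 3, 3 without wild-type replicate 1, and 1 or 2 without any other single array. It was also 0 with only the 6 vehicle arrays or without the pancreas arrays. At an unadjusted p under 0.05, 6 were higher and 6 lower, against 3.26% and 3.93% of all genes. The median was -0.03. Dusp1, a phosphatase that inactivates MAP kinases, read 7.21, 6.59 and 6.37 in wild type and 8.27, 7.64 and 8.07 in knockout. It went against Per1 and Mt2, with groups apart and a difference of 1.27 ± 0.23 that missed the threshold (limma, adjusted p = 0.072). Tsc22d3 (Gilz), an anti-inflammatory mediator, differed by -0.60 ± 0.17 (adjusted p = 0.436). The receptor Nr3c1 differed by 0.19 ± 0.14 (adjusted p = 0.821), and none of the 11 measured members of the receptor and chaperone list was called or had an unadjusted p under 0.05.

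Gluconeogenesis genes were mostly below wild type but none passed. Of 17 measured, 14 had a negative difference, against 8932 of all 17904 genes. An unadjusted p under 0.05 was seen in 6, all lower, against 3.93% of all genes. The median was -0.11, and -0.115 without the pancreas arrays. Slc37a4, the glucose 6-phosphate carrier, read 9.96, 9.90 and 9.99 in wild type and 9.48, 9.51 and 9.65 in knockout, a difference of -0.41 ± 0.09 (limma, adjusted p = 0.29). The groups lay apart, as they did for 4 of the 17, all lower, against 6.04% of all genes. Pck1, the rate-controlling enzyme of the pathway, had a mean of 11.14 ± 0.20 (SD, n = 3) in wild type and 10.52 ± 0.49 in knockout, a difference of -0.62 ± 0.21 (adjusted p = 0.533) with knockout replicate 1 inside the wild-type range. The alanine aminotransferase Gpt differed by -0.42 ± 0.11 (adjusted p = 0.369) and pyruvate carboxylase Pcx by -0.28 ± 0.12 (adjusted p = 0.666).

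No gene on the lists of fatty acid synthesis, fatty acid oxidation and ketogenesis, cholesterol synthesis or lipid droplets was called. Chka and Dhrs9, both called above, are not on these lists. Of 19 measured genes of fatty acid synthesis, 2 had an unadjusted p under 0.05, both lower, against 3.93% of all genes. These were Srebf1, the factor that drives the pathway, and Thrsp. Srebf1 read 8.33, 8.82 and 8.50 in wild type and 7.98, 6.88 and 7.96 in knockout (-0.94 ± 0.26, limma, adjusted p = 0.429). Thrsp differed by -1.21 ± 0.39 (limma, adjusted p = 0.519). In both, knockout replicate 2 was the lowest array. Of 21 genes of fatty acid oxidation and ketogenesis, 4 were higher and 1 lower at an unadjusted p under 0.05. The shares of all genes were 3.26% and 3.93%. Vnn1 (0.75 ± 0.21, limma, adjusted p = 0.437) and Pdk4 (1.01 ± 0.37, adjusted p = 0.592) came first. Pdk4, the kinase that restrains glucose oxidation, read 3.80, 3.59 and 3.44 against 5.74, 4.08 and 4.04, so that knockout replicate 1 carried most of its difference. Cholesterol synthesis (17 measured, median 0.02) and lipid droplet genes (17, median -0.03) had none at an unadjusted p under 0.05.

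Male-biased liver genes had a median of 0.26 over 11 measured, and none was called. At an unadjusted p under 0.05, 3 were higher, against 3.26% of all genes. The median was 0.06 without the pancreas arrays. Their leading member Elovl3, an enzyme of fatty acid elongation that is also on the clock list, read 9.73, 8.81 and 9.61 in wild type and 10.76, 10.03 and 10.62 in knockout (1.09 ± 0.31, limma, adjusted p = 0.446). Socs2, a growth hormone feedback gene, had the largest positive difference of all genes, 2.11 ± 0.71 (adjusted p = 0.533). Its values were 5.86, 5.15 and 4.27 against 5.32, 8.02 and 8.27, so that knockout replicate 1 lay within the wild-type range.

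Interferon-response genes were mostly below wild type, with 17 of 23 negative, against 8932 of all 17904 genes. At an unadjusted p under 0.05, 5 were lower and 1 higher, against 3.93% and 3.26% of all genes. The median was -0.16, and -0.08 without the pancreas arrays. Under dexamethasone it was 0.34, with 8 higher and 0 lower at an unadjusted p under 0.05. None was called. Irf7, a transcription factor of the response, read 6.65, 6.75 and 6.63 in wild type and 6.30, 5.94 and 6.05 in knockout, a difference of -0.58 ± 0.15 (limma, adjusted p = 0.375). The acute-phase list had 21 measured members, a median of 0.10 and 0 calls. At an unadjusted p under 0.05, 2 were higher and 1 lower, against 3.26% and 3.93% of all genes. Cell cycle genes (17 measured) had none at that level.

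Markers of other liver cells gave no call. In bulk tissue, fewer cells of a type and less RNA per cell cannot be told apart. Of 13 markers of stellate cells and fibroblasts, 5 were lower at an unadjusted p under 0.05, of 16 endothelial markers 4, and of 9 B and plasma cell markers 3, against 3.93% of all genes. The mean of the stellate markers was 5.68 to 6.15 in wild type and 5.43 to 5.75 in knockout, and that of the B cell markers 2.68 to 2.89 against 2.56 to 2.60, near the bottom of the arrays. The smooth muscle actin Acta2 read 7.32, 6.74 and 5.85 in wild type and 5.10, 4.92 and 5.60 in knockout (-1.43 ± 0.41, limma, adjusted p = 0.439). Among the vehicle arrays it was highest in wild-type replicates 1 and 2, the arrays with the muscle transcripts. In wild-type dexamethasone replicate 2, Acta2 read 6.88 while the muscle transcript Acta1 read 4.25. The endothelial receptor Lyve1 read 5.49, 5.45 and 5.57 against 4.94, 5.12 and 4.51 (-0.65 ± 0.17, adjusted p = 0.429), with no overlap, and wild-type replicates 1 and 2 were not above replicate 3. Of 16 markers of Kupffer cells and macrophages, none had an unadjusted p under 0.05. Marco was 7.20 in wild-type replicate 1 and between 3.92 and 4.70 in the other 5 arrays. The part of these cell markers in the gene differences was not tested.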

How the data were processed

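The deposited values were used as the authors gave them: log2 intensities of 34760 probe sets on Affymetrix whole-transcript arrays, made with R 2.10.0 and affy, per the submitters' processing notes. Their background correction, normalisation and summary method: not given in the sources used here. Of the probe sets, 21640 carried 1 gene symbol in the platform annotation, 1321 several and 11799 none. A gene was represented by its 1-symbol probe set with the highest mean (954 of 19937 genes had more than 1), and 17904 genes above the 20th percentile of their array in at least 3 of 12 arrays were tested.

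A limma 3.58.1 model (R 4.3.3, with version 1.17.8 of data.table) with 1 mean per group covered the 12 arrays, with 8 residual and 5.07 prior degrees of freedom. The median residual SD was 0.143. The p-values are two-sided, and the number of arrays limits the precision. The difference of genotype effects was tested in the same fit. The replicate numbers of the labels were not taken as pairs. Same-numbered vehicle arrays deviated from their group means with correlations of -0.17, -0.14 and -0.54. These correlations include the pancreas transcripts of wild-type replicates 1 and 2 and knockout replicate 3, and cannot decide whether the numbers pair animals. The fit was tested on simulated data. Promoters came from RefSeq on GRCm38.p6. The comparison and the gene lists were chosen with earlier results of these data known. Named were Hdac6, all called genes, the core clock genes and, from each other list, at most the 4 members of lowest p. Others, such as the muscle genes and Marco, were named after their values were seen. Alternatives covered the filter, normalisation, arrays and probe sets used, the replicate block and the pancreas arrays.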

Additional observations from a re-analysis of the deposited data

Results flagged for a closer look

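The 64 genes looked at were Hdac6, the called and core clock genes, the negative-arm and positive-arm clock lists, and the neighbours of Hdac6. Of these, 3 had the knockout arrays wholly on one side of wild type under vehicle and wholly on the other under dexamethasone. The difference between the genotype effects, dexamethasone minus vehicle, was -1.65 for Arntl (limma, adjusted p = 0.424), from 1.42 ± 0.26 under vehicle to -0.23 ± 0.26 under dexamethasone. It was -1.25 for Lonrf3 (adjusted p = 0.424), from 0.54 ± 0.20 to -0.71 ± 0.20, and 1.19 for Rasa3 (adjusted p = 0.0756), from -0.76 ± 0.11 to 0.43 ± 0.11. Acot1, named above but outside the 64 genes, had the same pattern, from 0.26 ± 0.11 to -0.72 ± 0.11. Its difference of the effects was -0.98 (limma, adjusted p = 0.1585). None of these differences passed the threshold, and the share of all genes with this pattern was not computed.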

How the results depend on the processing

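Hdac6 stayed called in all 22 alternatives. Against 18 calls under vehicle, 9 were made with only the 6 vehicle arrays (7 of them among the 18), 5 without the arrays with pancreas transcripts and 7 with the pancreas markers as a covariate. Under dexamethasone, with 5 calls, there were 3 with no filter, 3 with the replicate block, 1 without the pancreas arrays, 2 with the covariate and 2 with each probe set on its own. The difference of the genotype effects gave 1 call without the pancreas arrays. Of the negative-arm clock genes 2 in place of 4 were called without the pancreas arrays and 2 with the covariate. Of the positive-arm list, in place of 3, there was 1 with only the vehicle arrays, 5 with the replicate block, 1 without the pancreas arrays and 0 with the covariate. Leaving out 1 array at a time gave 5 to 28 calls under vehicle, 1 to 37 under dexamethasone, 0 to 3 for the difference of the effects, 1 to 6 negative-arm and 0 to 4 positive-arm clock genes, and a Hdac6 difference of -2.22 to -1.96. Nr1d1, at -0.01, was 0.016 after quantile normalisation and -0.12 to 0.10 with an array left out. The replicate numbers were not taken as pairs, and 0 of 6 vehicle arrays deviated most like the array of the same number. With the replicate block there were 24 vehicle calls, including all 18. The causes of these changes were not tested.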
